A study of Arabidopsis thaliana with 15 samples.

Results

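WRKY proteins are plant transcription factors that carry a conserved zinc finger domain and bind a short DNA element, the W-box. The 10 genes described here were taken by name: WRKY33 (AT2G38470), WRKY25 (AT2G30250) and WRKY26 (AT5G07100) of group I, WRKY22 (AT4G01250) and WRKY29 (AT4G23550) of group IIe, and WRKY53 (AT4G23810), WRKY46 (AT2G46400), WRKY70 (AT3G56400), WRKY54 (AT2G40750) and WRKY30 (AT5G24110) of group III. In the TAIR10.1 annotation, WRKY29 (12291632 to 12293367, plus strand) and WRKY53 (12392370 to 12393982, minus strand) lie on chromosome 4, WRKY46 (19043411 to 19044955, minus strand) on chromosome 2 and WRKY30 (8153115 to 8154710, minus strand) on chromosome 5. WRKY25 lies on chromosome 2 (12903208 to 12905338, minus strand), WRKY26 on chromosome 5 (2204206 to 2205965, plus strand) and WRKY70 on chromosome 3 (20908711 to 20910623, minus strand). All 10 were present among the 18934 genes of the gene count table, and they held 19 of the 26677 tag clusters (TCs). CAGE, which counts capped 5′ ends of RNA by position, was applied to whole Arabidopsis Col-0 seedlings that were 14 days old. They were treated for 10 or 30 min with 3.3 µM flg22, the peptide of bacterial flagellin that plants sense, supplied in DMSO. The 15 libraries form 5 groups of 3, each library from a pool of 10 seedlings: wild type (wt) at 10 and 30 min, hen2-4 at 10 and 30 min, and rrp4-2 at 30 min. T-DNA disrupts HEN2, the gene of a nuclear exosome RNA helicase, in hen2-4, and rrp4-2 is a hypomorphic allele of the exosome core gene RRP4. The replicates grew on separate plates and were treated in separate wells, from 1 seed batch and at 1 time, so the tests measure the spread between such pools. No untreated or mock-treated library was analysed here, so a change is one between 10 and 30 min of treatment. In whole seedlings, a change in the number of expressing cells and a change in RNA per cell cannot be told apart.

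When flg22 is sensed at the cell surface, mitogen-activated protein kinase (MAPK) cascades are activated within minutes, and WRKY factors are among their best known targets. WRKY33 is phosphorylated by MPK3 and MPK6, is held with MPK4 by the adaptor MKS1, and drives the synthesis of camalexin, an antifungal compound. WRKY22 and WRKY29 are classical downstream elements of the flagellin cascade. Group III members such as WRKY70, WRKY54, WRKY53 and WRKY46 act in salicylic acid signalling and in leaf senescence. Many WRKY genes carry W-boxes in their own promoters and are thought to regulate each other.

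The W-box core is TTGAC, and the fuller form searched was TTGACC or TTGACT, which contains the core. Both were sought on both strands (the core then reads GTCAA) in the 250 bases upstream of each gene. The window ended just before the 5′ edge of the leading TC or the annotated 5′ end, whichever lay further upstream. Sequences were read from the TAIR10.1 reference, 5′ to 3′ on the strand of the gene, with the cores in capitals. WRKY33, WRKY30, WRKY53 and WRKY29 are shown because their levels rose and their windows held several cores, and WRKY46 and WRKY54 because they were not called.
WRKY33, chr2:16107985-16108234, plus strand: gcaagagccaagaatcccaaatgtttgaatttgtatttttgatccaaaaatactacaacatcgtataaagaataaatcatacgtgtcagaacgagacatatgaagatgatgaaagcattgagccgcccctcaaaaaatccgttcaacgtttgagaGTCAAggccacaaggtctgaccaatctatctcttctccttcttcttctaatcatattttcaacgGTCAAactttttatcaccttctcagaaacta
WRKY30, chr5:8154716-8154965, minus strand: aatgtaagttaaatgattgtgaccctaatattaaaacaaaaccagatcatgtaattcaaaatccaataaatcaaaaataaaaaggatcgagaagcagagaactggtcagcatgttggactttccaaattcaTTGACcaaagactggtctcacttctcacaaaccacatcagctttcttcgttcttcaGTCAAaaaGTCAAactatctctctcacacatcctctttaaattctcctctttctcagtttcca
WRKY53, chr4:12394015-12394264, minus strand: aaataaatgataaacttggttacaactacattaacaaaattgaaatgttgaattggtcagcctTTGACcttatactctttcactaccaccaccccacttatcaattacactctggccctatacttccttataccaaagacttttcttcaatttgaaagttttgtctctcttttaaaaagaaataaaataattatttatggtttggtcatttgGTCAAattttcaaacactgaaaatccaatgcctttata
WRKY29, chr4:12291382-12291631, plus strand: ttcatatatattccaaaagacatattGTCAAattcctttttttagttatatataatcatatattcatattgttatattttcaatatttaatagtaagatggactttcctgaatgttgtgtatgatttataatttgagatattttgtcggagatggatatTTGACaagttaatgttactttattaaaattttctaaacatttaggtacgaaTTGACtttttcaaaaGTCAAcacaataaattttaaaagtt
WRKY46, chr2:19044956-19045205, minus strand: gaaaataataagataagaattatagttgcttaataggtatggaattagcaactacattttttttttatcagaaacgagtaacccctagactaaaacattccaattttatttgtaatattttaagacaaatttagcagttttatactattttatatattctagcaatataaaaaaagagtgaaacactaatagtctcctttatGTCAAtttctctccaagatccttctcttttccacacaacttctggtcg
WRKY54, chr2:17002529-17002778, minus strand: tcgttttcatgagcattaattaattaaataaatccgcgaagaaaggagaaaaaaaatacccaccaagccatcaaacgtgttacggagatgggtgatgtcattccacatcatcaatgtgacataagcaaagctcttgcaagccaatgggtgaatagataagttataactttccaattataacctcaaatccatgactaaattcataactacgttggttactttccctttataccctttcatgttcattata
The core was present in 9 of the 10 windows and the fuller form in 6, against 45.0% and 28.4% of the 18799 windows read in this way. WRKY29 had 4 cores, WRKY30 had 3, and WRKY33, WRKY25 and WRKY53 had 2 each. WRKY26, WRKY22, WRKY46 and WRKY70 had 1, and the WRKY54 window held none. A window with 2 or more cores was found for 14.2% of genes. Counted back from the window's end (its last base is -1), the cores of WRKY30 start at -119, -63 and -55, those of WRKY33 at -95 and -31 and that of WRKY46 at -48. The fuller form was found in WRKY33, WRKY25, WRKY26, WRKY29, WRKY53 and WRKY30. The windows of WRKY25 and WRKY26 reach into a neighbouring gene and are not printed. The matches describe letters only, and WRKY26, which was not called, also held the fuller form. WRKY22 and WRKY70, which were called higher in wt, held 1 core each and no fuller form, and are not printed. The printed windows were picked by level and by cores, so they cannot show a link between levels and cores.

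**Figure D1:**
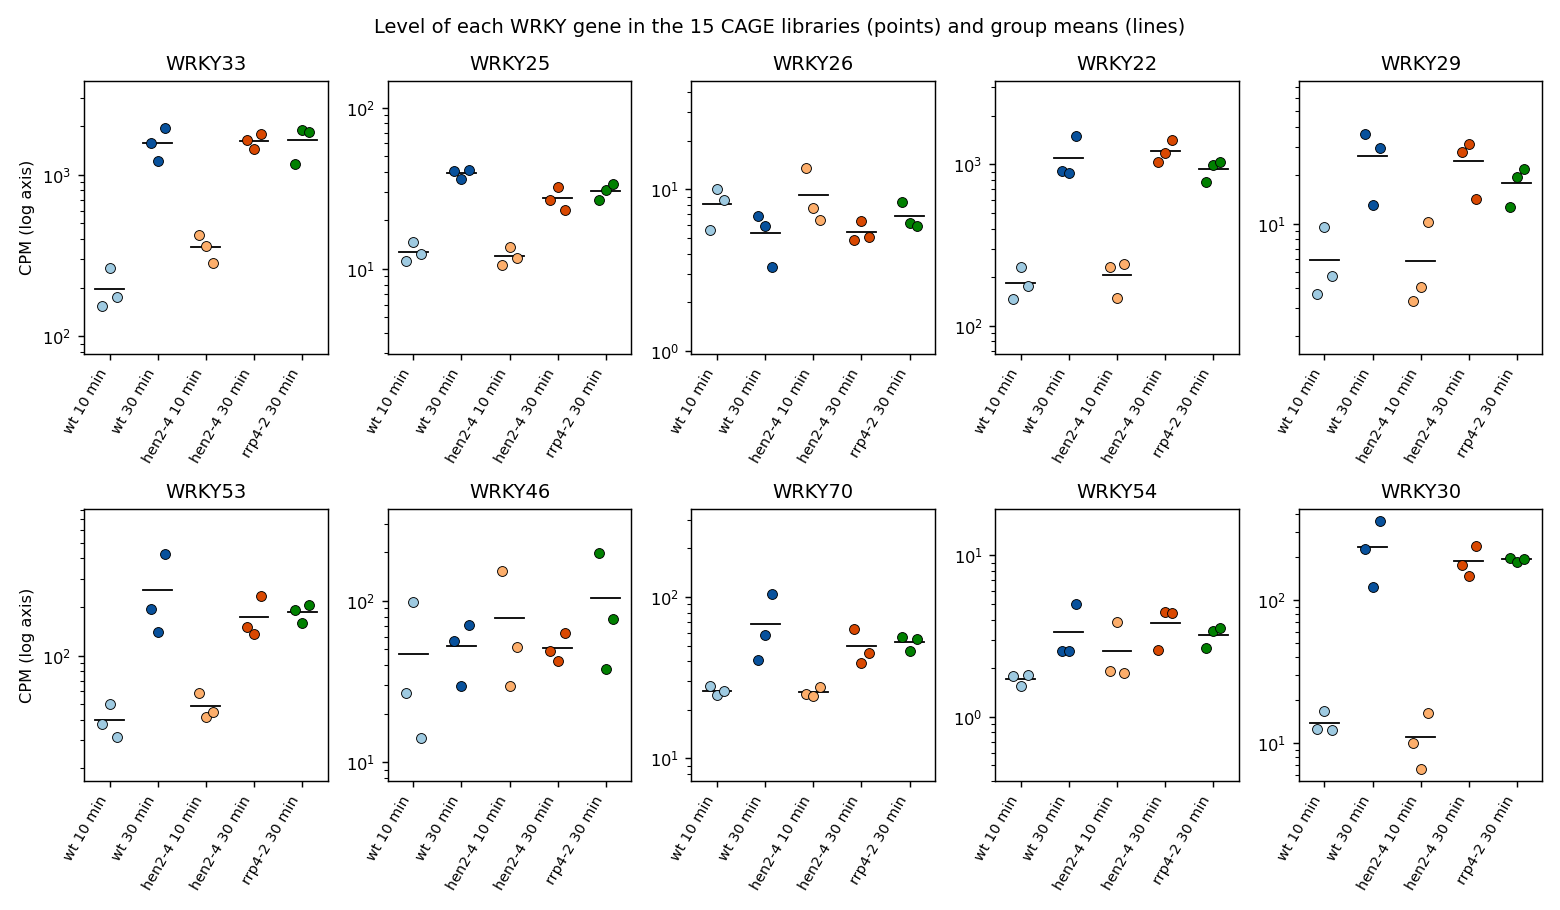
Level of each of the 10 WRKY genes in the 15 libraries, as CPM (tags relative to the TMM-scaled library size) on a log axis that differs between panels. Each point is 1 library and each line a group mean of 3. WRKY33, WRKY25, WRKY22, WRKY29, WRKY53, WRKY70, WRKY54 and WRKY30 were higher at 30 than at 10 min in wt with no overlap. WRKY54 was not called, and the WRKY46 points are widely scattered. The share of all genes without overlap was not counted.

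The libraries held 13904125 to 24753128 tags in genes, and replicates correlated at r = 0.959 to 0.989 across genes. The lowest values both involved replicate 3 of wt at 30 min (r = 0.959 and 0.961 with the others), a library that was also the highest of its group for several members. As a check of the genotype, HEN2 tags averaged 42.3 ± 6.77 CPM in the 10 min wt libraries but 9.79 ± 0.710 CPM in those of hen2-4 (SD, n = 3). RRP4 was not called in rrp4-2, and a point mutation need not change it. All 3 shoot and all 4 root marker genes had tags. The summed shoot markers, mostly RBCS1A (3953 to 8512 CPM), ran from 6511 to 7387 CPM in wt and from 4186 to 5515 CPM in hen2-4, both at 30 min, while LHCB1.1 and LHCB2.1 overlapped there. At 10 min the shoot sums overlapped, at 6917 to 9106 CPM in wt and 5256 to 7517 CPM in hen2-4. The summed root markers ran from 402 to 770 CPM in wt and from 233 to 322 CPM in hen2-4 at 10 min, and from 237 to 369 CPM and 177 to 223 CPM at 30 min. In rrp4-2 at 30 min the shoot sum ran from 4951 to 5088 CPM and the root sum from 161 to 285 CPM. Single markers did not all follow the sums. At 30 min, 1 of the 4 root markers was higher in hen2-4 than in wt, and 2 of the 3 shoot markers were higher in rrp4-2 than in wt. LHCB1.1, a chlorophyll-binding protein gene, fell with time in both genotypes, and 5 of 5 heat shock genes rose. Their sum went from 62.6 to 75.0 CPM at 10 min to 2804 to 6359 CPM at 30 min in wt. The part of these shifts in the results on the WRKY genes was not tested.

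Between 10 and 30 min in wt, 7 of the 10 WRKY genes rose and none fell. Calls required a fold change of 2 or more in either direction (1 on the log2 scale) together with a Benjamini-Hochberg adjusted p of 0.05 or less in edgeR's quasi-likelihood test. Among all 18879 genes tested, 7.55% were called higher and 3.63% lower. The members were chosen with earlier results of these data known, so this comparison is a description. The median log2 fold change was 1.88 for the 10 members and 0.01 for all genes. For the count of 0 called lower, no member passed an unadjusted p of 0.05, and DESeq2 and limma voom also called 0. On unscaled library sizes the median of all genes shifted to a log2 fold change of -0.25 and the split of calls turned from 1426 higher and 686 lower to 1066 and 1446, while the same 7 members were called.

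WRKY33 had the largest change of the 3 group I members. Its level was 153, 263 and 176 CPM in the wt libraries at 10 min and 1581, 1222 and 1944 CPM at 30 min. Every library at 30 min was thus above every library at 10 min, and the fitted log2 fold change was 3.00 (SE 0.264, edgeR adjusted p = 9.0e-07). WRKY25, a close relative that also associates with MKS1 and MPK4, went from 11.3, 14.7 and 12.3 CPM to 40.7, 36.2 and 41.0 CPM. Its replicates were the tightest of the members, and its log2 fold change was 1.62 (SE 0.164, edgeR adjusted p = 3.8e-06). WRKY26, which acts with WRKY25 and WRKY33 in tolerance to heat, did not follow them. Its levels were 5.63, 10.0 and 8.57 CPM at 10 min and 6.86, 5.96 and 3.31 CPM at 30 min, groups that overlapped (log2 fold change -0.58, SE 0.317, edgeR adjusted p = 0.219).

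Both group IIe members rose. WRKY22 stood at 146, 232 and 176 CPM at 10 min and at 910, 887 and 1508 CPM at 30 min in wt, a log2 fold change of 2.58 (SE 0.262, edgeR adjusted p = 3.8e-06). WRKY29, its partner in the flagellin cascade, was 3.65, 9.48 and 4.74 CPM at 10 min and 36.0, 13.0 and 29.7 CPM at 30 min. The groups did not overlap, but WRKY29 varied more between replicates than most genes, and its log2 fold change of 2.13 had an SE of 0.482 (edgeR adjusted p = 0.0051). CAGE counts 1 end per molecule, so levels in CPM need no division by length, and WRKY22 exceeded WRKY29 in all 15 libraries.

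Of the 5 group III members, 3 were called higher and 2, WRKY46 and WRKY54, were not. WRKY30, a gene linked to oxidative stress, rose from 12.5, 16.8 and 12.4 CPM to 229, 124 and 358 CPM (log2 fold change 4.09, SE 0.382, edgeR adjusted p = 1.6e-06). This was the largest change of the 10 in wt. WRKY53, a promoter of leaf senescence, rose from 37.6, 49.9 and 31.5 CPM to 195, 139 and 429 CPM (log2 fold change 2.68, SE 0.353, edgeR adjusted p = 5.2e-05). Replicate 3 at 30 min was the highest library for both genes, and without it the log2 fold change of WRKY53 was 2.07.

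WRKY70, which raises salicylic acid responses and restrains jasmonic acid responses, was even at 10 min, with 28.1, 24.7 and 26.2 CPM. At 30 min it reached 41.0, 58.0 and 104 CPM, the last in replicate 3 (log2 fold change 1.36, SE 0.265, edgeR adjusted p = 0.0017). Without that library its log2 fold change was 0.90 (adjusted p = 0.0044), under the fold limit. WRKY54, which acts together with WRKY70 in senescence, went from 1.78, 1.54 and 1.82 CPM to 2.57, 2.54 and 5.02 CPM. The groups did not overlap, but the log2 fold change of 0.98 (SE 0.350) was not called (edgeR adjusted p = 0.063). It was called, at 1.14 on the log2 scale, without replicate 1 or without replicate 2 at 30 min (adjusted p = 0.045 and 0.049). WRKY54 was also the member with the fewest tags, 28 to 98 per library.

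**Figure D2:**
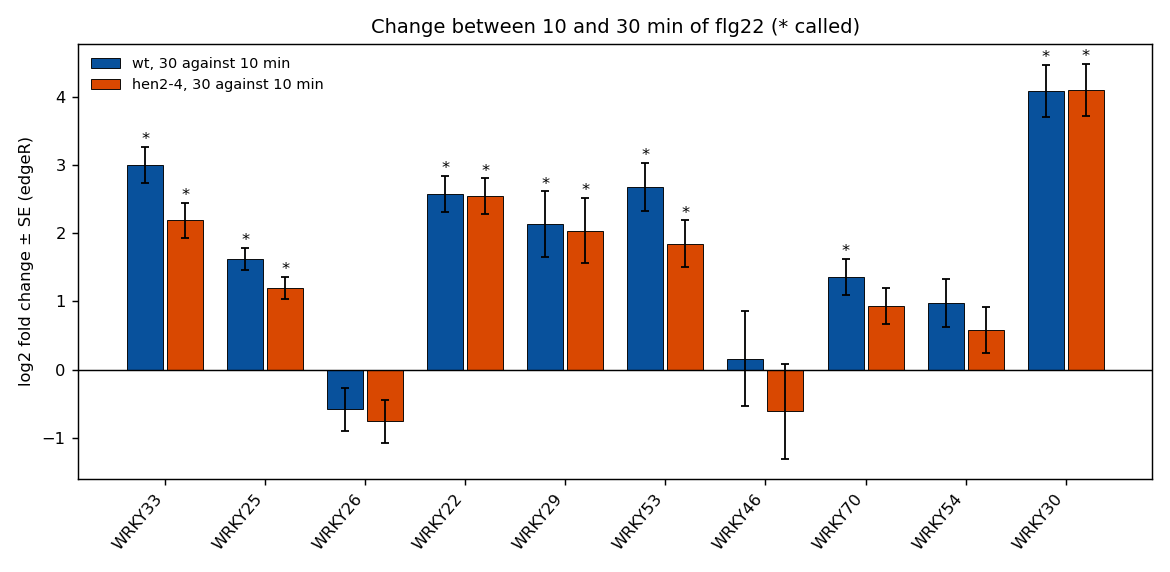
Fitted log2 fold change between 10 and 30 min for each WRKY gene, in wt (blue) and hen2-4 (orange), with SE bars from edgeR and an asterisk where called. WRKY30 had the longest bars, 4.09 in wt and 4.10 in hen2-4, and WRKY26, WRKY46 and WRKY54 carried no asterisk in either genotype.

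WRKY46 stood apart by its replicates rather than by its groups. This gene acts in salicylic acid signalling and in the response to drought. In wt it was 27.0, 98.7 and 14.2 CPM at 10 min and 56.1, 29.8 and 70.7 CPM at 30 min. In hen2-4 it was 154, 29.6 and 52.0 CPM at 10 min and 48.6, 42.6 and 62.9 CPM at 30 min, and in rrp4-2 it was 199, 38.1 and 77.0 CPM. The highest library exceeded the lowest by 6.95-fold in wt at 10 min, so the groups overlapped throughout. The SD pooled within groups was 1.02 on the log2(CPM + 1) scale, against a median of 0.229 over 13417 genes, and 0.298% of those genes had a larger one. The gene had 219 to 3762 tags per library. The time change was 0.16 in wt (SE 0.699, edgeR adjusted p = 0.904) and -0.61 in hen2-4 (SE 0.700, edgeR adjusted p = 0.567), and neither its direction nor its absence is shown by these libraries. Without replicate 2 of wt at 10 min, the 98.7 CPM library, the wt value was 1.33, and over all settings it ran from -0.55 to 1.61, never called.

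**Figure D3:**
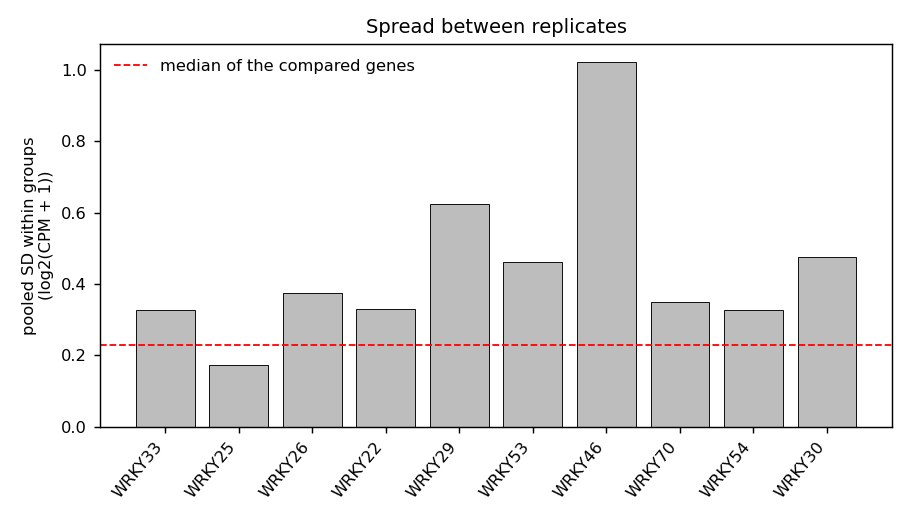
Standard deviation of log2(CPM + 1) within groups, pooled over the 5 groups, for each WRKY gene. The dashed line is the median of 13417 genes, 0.229. WRKY46, at 1.02, is the tallest bar and WRKY25, at 0.173, the only bar below the line. The offset of 1 lowers the value of WRKY54, the gene with the fewest tags.

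In hen2-4, 6 of the 10 rose between 10 and 30 min and 0 were called lower, against 6.00% and 5.31% of all genes. WRKY26 alone passed an unadjusted p of 0.05 on the lower side, and DESeq2 and limma voom called 0 lower. WRKY33 went from 425, 362 and 283 CPM to 1634, 1447 and 1796 CPM (log2 fold change 2.19, SE 0.255). WRKY25 rose by 1.20 (SE 0.164) on the log2 scale, WRKY22 by 2.55 (SE 0.261), WRKY29 by 2.04 (SE 0.482), WRKY53 by 1.85 (SE 0.343) and WRKY30 by 4.10 (SE 0.384). Without replicate 3 of hen2-4 at 10 min the value of WRKY29 was 2.69. These 6 were also called in wt. WRKY30 stood at 9.99, 6.59 and 16.3 CPM at 10 min and 177, 148 and 242 CPM at 30 min, and WRKY22 at 229, 149 and 242 CPM and then 1031, 1172 and 1418 CPM. Both genes kept their times well apart, with every 30 min library above every 10 min library. WRKY70 had a log2 fold change of 0.94 (SE 0.263, edgeR adjusted p = 0.019), which is just under the fold limit. WRKY54, at 1.91, 3.89 and 1.88 CPM and then 2.58, 4.49 and 4.37 CPM, overlapped between the times (log2 fold change 0.58, SE 0.339, edgeR adjusted p = 0.242). On unscaled library sizes WRKY25 was under the fold limit, at 0.96, the median of all genes shifted to -0.24, and the split over all genes turned from 1133 higher and 1002 lower to 833 and 1807. WRKY26 was 13.6, 7.64 and 6.44 CPM at 10 min and 4.83, 6.37 and 5.08 CPM at 30 min, which did not overlap, yet it was not called (log2 fold change -0.76, SE 0.317, edgeR adjusted p = 0.10).

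The time change itself was then compared between the genotypes, as an interaction. No member was called, and 0.00% of all genes were. WRKY33 was the 1 member below an unadjusted p of 0.05, with a time change smaller in hen2-4 by -0.81 on the log2 scale (SE 0.346, edgeR adjusted p = 0.868). DESeq2 and limma voom called 0 members as well. WRKY53 gave a similar value of -0.83 (SE 0.471, edgeR adjusted p = 0.903). WRKY70, called in wt only, differed by -0.42 (SE 0.369, edgeR adjusted p = 0.929), so a difference between genotypes is not shown.

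**Figure D4:**
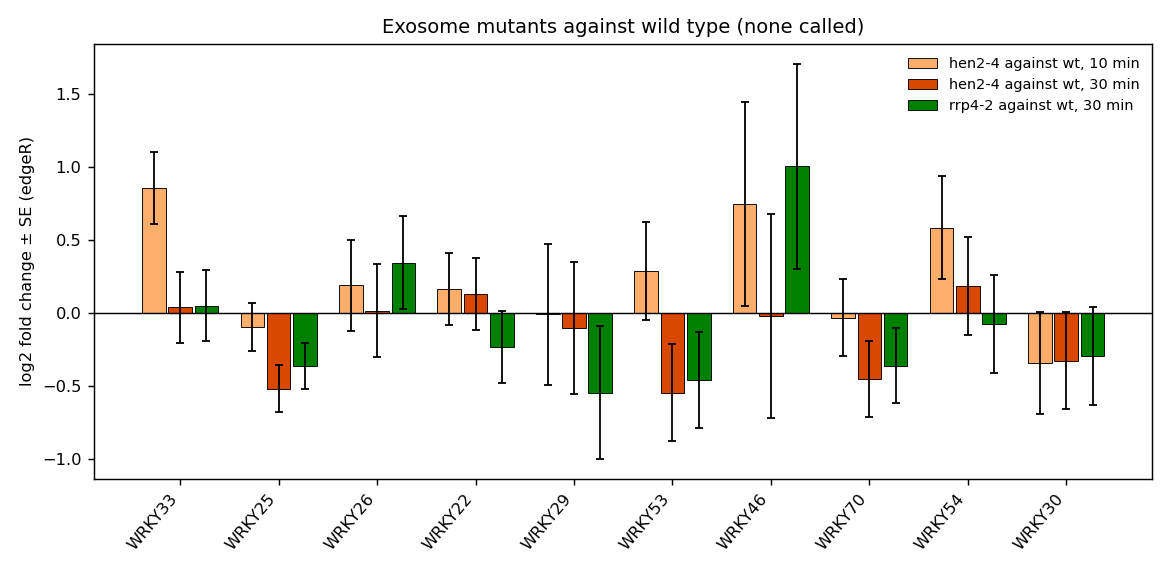
Fitted log2 difference of each mutant from wt for each WRKY gene, with SE bars from edgeR. None was called. WRKY33 in hen2-4 at 10 min, at 0.85, and WRKY46 in rrp4-2, at 1.00 with an SE of 0.703, are the tallest bars.

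The exosome mutants were compared with wt at equal times, to ask whether the levels of these genes differ when RNA decay by the exosome is impaired. HEN2 acts with the nuclear exosome, whereas RRP4 belongs to the core that serves the nucleus and the cytoplasm. None of the 10 was called in any of the comparisons. The calls over all genes were 1.20% for hen2-4 against wt at 10 min, 0.996% for hen2-4 at 30 min, 2.70% for rrp4-2 at 30 min and 0.334% for rrp4-2 against hen2-4, in either direction. DESeq2 and limma voom called 0 members in each, and the comparisons share libraries. At an unadjusted p under 0.05 stood WRKY33 in hen2-4 at 10 min and WRKY25 in each mutant at 30 min, and no member for rrp4-2 against hen2-4.

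WRKY33 was higher in all 3 hen2-4 libraries than in all 3 wt libraries at 10 min, with 283 CPM as the lowest in hen2-4 and 263 CPM as the highest in wt. The log2 difference of 0.85 (SE 0.247) was not called (edgeR adjusted p = 0.115). At 30 min the difference was 0.04 (SE 0.244). WRKY25 was lower at 30 min in both mutants without overlap. It stood at 26.8, 32.2 and 23.3 CPM in hen2-4 (log2 difference -0.52, SE 0.160, edgeR adjusted p = 0.169) and at 26.8, 31.0 and 33.7 CPM in rrp4-2 (log2 difference -0.37, SE 0.159, edgeR adjusted p = 0.223). WRKY33 in rrp4-2 was 1172, 1902 and 1835 CPM, a log2 difference of 0.05 from wt (SE 0.244). The rrp4-2 libraries of WRKY30 were close together at 198, 186 and 195 CPM, and those of WRKY22 were 782, 991 and 1036 CPM. WRKY53 was 191, 159 and 206 CPM in rrp4-2, and WRKY70 was 56.2, 46.6 and 55.2 CPM. Each of these ranges overlapped that of wt at 30 min. For WRKY33, WRKY25, WRKY22, WRKY29, WRKY53, WRKY70 and WRKY30, both 30 min groups of wt and hen2-4 lay above the 10 min group of the same genotype, and no difference among the 30 min groups was called. The share of all genes whose groups do not overlap was not counted for any of these comparisons.

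CAGE also places the start sites within each gene. The leading TC of each of the 10 genes lay over the annotated 5′ untranslated region. WRKY33, on chromosome 2 (16108235 to 16110766, plus strand), had 8 TCs. Its leading TC (16108269 to 16108664) held 98.1% to 99.3% of the tags of the gene in every library. The other 7 lay in coding exons and each held at most 0.664% of them. WRKY22 on chromosome 4 (522530 to 524249, minus strand) had 1 minor TC in a coding exon, and WRKY54 on chromosome 2 (17000419 to 17002528, minus strand) had 2 TCs in its 5′ untranslated region. The other 7 genes had 1 TC each.

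**Figure D5:**
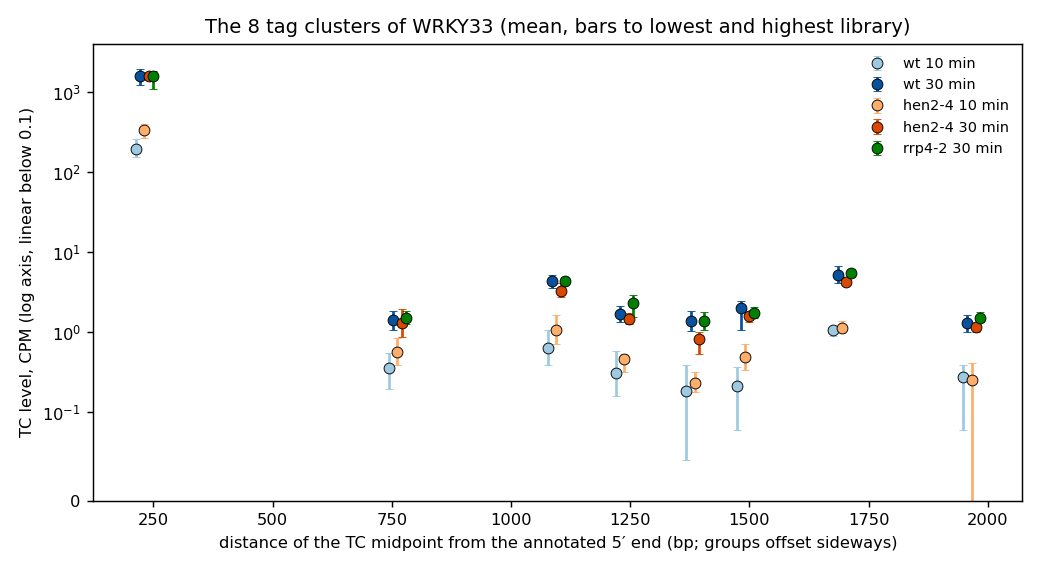
Level of the 8 WRKY33 TCs against the distance of the TC midpoint from the annotated 5′ end, by group, on an axis that is logarithmic above 0.1 CPM and linear below. Points are means of 3 libraries and bars reach the lowest and highest library. The leading TC near 231 bp stands above 100 CPM and the 7 coding-exon TCs lie below 10 CPM, and all were higher at 30 than at 10 min in wt.

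All 8 WRKY33 TCs were called higher in wt, with log2 fold changes from 1.93 to 3.20, and all 8 in hen2-4, from 1.26 to 2.23. The largest of the coding-exon TCs by tags, 1694 bp from the 5′ end, went from 0.881, 1.09 and 1.16 CPM to 4.62, 4.16 and 6.77 CPM in wt (log2 fold change 2.31, SE 0.250, edgeR adjusted p = 6.3e-06). The minor TCs thus rose as the leading one did. Of the 19 TCs of the members, 15 were called higher in wt and 14 in hen2-4, against 8.25% and 7.29% of all 26504 TCs tested. With limma-trend on log2(TPM + 1), which shrinks low values, 9 and 6 were called. The 8 WRKY33 TCs share a gene and are not 8 independent cases. None of the 19 was called higher in hen2-4 than in wt at 10 min, where 5.11% of all TCs were. That share includes TCs that belong to no gene, and at gene level 197 of 18879 genes were called higher. The absence of calls among the 19 is thus no clear lack. Without replicate 2 of wt at 10 min, 1 TC, of WRKY33, was called.

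WRKY54 was the only member with 2 TCs that each held at least 10% of its tags in at least 3 libraries, so it alone could be tested for a change of start site. The upstream TC (17002496 to 17002521) gave 34.7% to 74.5% of the tags and the downstream TC (17002364 to 17002410) the rest. No change in the relative use of the pair was called between 10 and 30 min by the limma diffSplice test, in wt (log2 difference 0.17 for the upstream TC, adjusted p = 0.923) or in hen2-4 (0.80, adjusted p = 0.480). In wt, 10.1% of the 3617 TCs tested were called (367), and in hen2-4 315 were. In rrp4-2 the downstream TC stood at 1.22, 1.99 and 2.27 CPM and the upstream TC at 1.32, 1.31 and 1.21 CPM. In wt at 30 min these were 0.831, 0.843 and 2.44 CPM and 1.71, 1.74 and 2.61 CPM. The log2 difference in use of the downstream TC was 1.19 against wt and 1.42 against hen2-4, and neither was called (diffSplice adjusted p = 0.330 and 0.553). The unadjusted diffSplice p was 0.049 and 0.017, and 146 and 13 of the 3617 TCs were called in these comparisons.

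Opposite-strand TCs were found at 2 members. The one beside WRKY25 (chromosome 2, 12905516 to 12905596, plus strand) lay outside the gene, upstream of its 5′ end, and was called in no comparison (hen2-4 against wt at 10 min: log2 difference -0.24, SE 0.422, edgeR adjusted p = 0.861). The window upstream of WRKY25 holds most of this TC and reaches into the neighbouring gene AT2G30260. Whether the TC lies in that gene was not examined. The other opposite-strand TC lay over the 3′ untranslated region of WRKY22 (chromosome 4, 522782 to 522842, plus strand). CAGE reads keep their strand, so its tags are not counted in WRKY22. The TC stood at 1.08, 0.910 and 0.518 CPM in wt and 1.78, 2.12 and 2.14 CPM in hen2-4 at 10 min. The groups did not overlap, and the TC was called higher in hen2-4 (log2 difference 1.23, SE 0.335, edgeR adjusted p = 0.036). WRKY22 itself differed by 0.16 (SE 0.247, edgeR adjusted p = 0.869) in the same comparison. At 30 min the TC was 1.66, 1.01 and 0.998 CPM in wt, 1.26, 2.56 and 1.87 CPM in hen2-4 and 1.93, 2.08 and 2.17 CPM in rrp4-2, and neither mutant was called (log2 difference 0.64, adjusted p = 0.373, and 0.75, adjusted p = 0.181, both edgeR). The call at 10 min was near its limit. It held under 14 of 23 other settings, over which the adjusted p ran from 0.014 to 0.150, and was lost without any 1 of the 6 libraries compared, without replicate 3 of rrp4-2, with a replicate block and with limma-trend on log2(TPM + 1).

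Other WRKY genes of the same groups were described from a list of each group, also chosen with earlier results of these data known. None of the 6 other group I genes tested was called higher in wt, and none of the 4 other group IIe genes (1 in hen2-4, WRKY27, and 0 without replicate 2 of hen2-4 at 10 min). Among all genes 7.55% were called higher in wt and 6.00% in hen2-4, so a count of 0 among so few genes is near that share. Without replicate 3 of wt at 10 min, 1 of the other group I genes, WRKY2, was called. Of the 4 other group III genes, 2 rose in wt and none fell: WRKY41 (log2 fold change 5.13, SE 0.960, edgeR adjusted p = 0.0012) and WRKY63. WRKY41 was 0.357, 0.363 and 0.0649 CPM at 10 min and 3.67, 1.16 and 25.2 CPM at 30 min in wt, the last again in replicate 3, without which its log2 fold change was 3.07 (edgeR adjusted p = 0.0021). In hen2-4 the same 2 genes were called, none without replicate 1 and 1 without replicate 2 of hen2-4 at 10 min, and 1 without replicate 2 of hen2-4 at 30 min. WRKY63 was also called higher in hen2-4 than in wt at 10 min (log2 difference 1.71, edgeR adjusted p = 0.012), at 1.29, 1.80 and 2.07 CPM against 0.555, 0.499 and 0.519 CPM. That call was lost without any 1 of the 3 wt libraries.

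MAPK cascades act upstream of WRKY factors. The kinase list and the camalexin and salicylic acid lists below were also chosen with earlier results of these data known. Their counts beside the share of all genes are thus descriptions. Of 11 genes for MAPK cascade kinases and WRKY partners, 5 were called higher in wt, 3 in hen2-4 and 0 lower, where 7.55% and 6.00% of all genes were called higher. Over 29 other settings these counts ran from 3 to 6 in wt and from 2 to 7 in hen2-4, the 7 with no fold limit. MPK3, the kinase that phosphorylates WRKY33, went from 128, 119 and 81.3 CPM to 490, 574 and 507 CPM in wt (log2 fold change 2.26, SE 0.195). MKS1, the adaptor of WRKY33 and MPK4, rose by 2.21 (SE 0.179) and MKK1 by 1.72 (SE 0.290) on the log2 scale. The median over the 11 was 0.91 in wt.

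Downstream of WRKY33, the 3 camalexin genes CYP71A12, CYP71A13 and CYP71B15 were all called higher in wt, where 7.55% of all genes were, and none was lower. In hen2-4 none was called, though all 3 had positive log2 fold changes, from 0.45 to 2.21. The difference between the genotypes was called for none of the 3 in the interaction (edgeR adjusted p from 0.343 to 0.956), so it is not shown. CYP71B15, the last enzyme of camalexin synthesis, was 0.278, 0.635 and 0.389 CPM at 10 min and 1.94, 1.1 and 8.71 CPM at 30 min in wt, and 5.03, 10.9 and 2.58 CPM at 30 min in hen2-4. CYP71A13 was 0.119, 0.181 and 0 CPM and then 0.733, 0.166 and 7.89 CPM, so that its groups overlapped. Without replicate 3 of wt at 30 min, or without any 1 of the 3 libraries of wt at 10 min, only CYP71A12 was called. In hen2-4, 1 was called without replicate 3 of wt at 30 min and 2 without replicate 3 of hen2-4 at 10 min. CYP71A12 was already higher in hen2-4 than in wt at 10 min (log2 difference 2.14, edgeR adjusted p = 0.0041), with 4.87, 9.18 and 16.8 CPM against 2.42, 1.91 and 2.73 CPM. That call was lost under 1 of 29 other settings, without replicate 2 of every group (2.07, adjusted p = 0.166).

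Among 7 salicylic acid genes, 3 were called higher in wt, 2 in hen2-4 and 0 lower, beside the same 7.55% and 6.00%. Over the other settings the counts ran from 2 to 4 in wt and from 1 to 3 in hen2-4, the 1 on unscaled library sizes and in the limma-trend fits. SARD1, a factor that turns on salicylic acid synthesis, was 14.6, 15.7 and 7.92 CPM at 10 min and 45.0, 51.6 and 164 CPM at 30 min in wt (log2 fold change 2.76, SE 0.430), and without replicate 3 at 30 min the log2 fold change was 1.91. EDS1 rose by 1.32 (SE 0.170) and NPR1, a salicylic acid receptor, by 1.1 (SE 0.167) on the log2 scale, and NPR1 was under the fold limit without replicate 1 of wt at 10 min (0.96) and on unscaled library sizes (0.84). The summed level of the list was 311 CPM in replicate 3 of wt at 30 min and 141 and 155 CPM in the others. Of the 10 members, 7 (WRKY33, WRKY25, WRKY22, WRKY53, WRKY70, WRKY54 and WRKY30) had their highest value of the 15 libraries in that replicate, and the part of that library's state in their values was not tested. That library also had the lowest TMM scaling factor, 0.821 (the next was 0.907), which raises its CPM, so this ranking depends in part on the scaling. The share of all genes that peak in it was not counted.

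The levels of the members were also set side by side over the 15 libraries, all of which share the step between 10 and 30 min, so that the coefficients are descriptions. Pearson's r of log2(CPM + 1) was 0.979 for WRKY22 and WRKY30, 0.965 for WRKY33 and WRKY22, 0.910 for WRKY33 and WRKY25 and -0.511 for WRKY33 and WRKY26. After the group means were removed, the same pairs gave 0.772, 0.617, 0.400 and 0.075. WRKY53 and WRKY30 gave 0.960 and then 0.777, the highest value of any member pair after that step. Other pairs fell to near 0. WRKY25 and WRKY30 gave 0.933 and then -0.074, and WRKY33 and WRKY70 gave 0.819 and then 0.092. Each of these was lower than over all libraries, apart from WRKY26.

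Of 13415 genes compared, those most like WRKY33 were HSPRO2, AtIPCS2, AT5G25930, AT1G62422 and LYK4, with r from 0.984 to 0.990. LYK4 is a receptor-like kinase of chitin perception. The genes most like WRKY70 were CRK2, EXO70B2, AT3G24420, AT3G29075 and AT4G08555, with r from 0.935 to 0.942. CRK2 is a cysteine-rich receptor-like kinase and EXO70B2 a subunit of the exocyst.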

How the data were processed

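The authors trimmed the CAGE reads to 25 nt with FASTX Toolkit, mapped them to TAIR10 with Bowtie 1.1.2, kept reads that mapped once and clustered their 5′ ends into TCs with CAGEfightR. For genes and for TCs, the authors deposited one table of unnormalised tag counts and one in TPM, scaled by the authors to the tags of each library. Only uniquely mapped reads enter, so near-identical copies are under-counted, and the authors' filter removed rarely used starts. Each table held 9 further columns that matched no labelled sample, which were not used. TCs were joined to genes by the run whose counts add up to the gene count.

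Counts were tested with edgeR 4.0.16 in R 4.3.3 (TMM, filterByExpr, 1 coefficient per group, all 15 libraries), which left out 55 genes and 173 TCs. TC use was tested with limma 3.58.1, and DESeq2 1.42.0 was an alternative. SE is the log2 fold change over the root of F. Levels are CPM on TMM library sizes. Fits were tested on simulated data for the wt time comparison, with 1 spread setting for all genes. That check does not cover genes as variable as WRKY46. Libraries held 13904125 to 24753128 tags in genes. The members, lists, tests and windows were chosen with earlier results of these data known. Named genes were all members, up to 3 called genes of each list with the largest change in wt, and the 5 genes most like WRKY33 and WRKY70; WRKY27, WRKY2 and single values beside them were named after they were seen. Positions follow the TAIR10.1 annotation, whose chromosome lengths hold all TCs.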

Additional observations from a re-analysis of the deposited data

How the results depend on the processing

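Of 2030 values of single members under 29 gene-level settings, 2014 kept their direction where called and their side of the threshold, 10 lost a call, 6 gained one and 0 were reversed. Most of the 2030 were uncalled in the main fit and count as kept while they stayed uncalled, whatever their sign. The 10 lost calls thus fall on the smaller, called part. The members called higher in wt numbered 6 to 8 and in hen2-4 5 to 7 over all settings. Both limma-trend fits on TPM removed WRKY70 in wt (0.97 with an offset of 1 and 0.99 with 0.1) and WRKY25 in hen2-4 (0.90 and 0.95), each just under the fold limit, and the limma-trend fit with an offset of 1 gave 9 member TCs in wt and 6 in hen2-4 where 15 and 14 were called. Over all genes, calls in wt were 1426 higher and 686 lower, against 875 and 882 with limma-trend on log2(TPM + 1), 1012 and 1579 with log2(TPM + 0.1) and 2308 and 1458 with no fold limit. In hen2-4 they were 1133 and 1002, against 743 and 1091 and then 842 and 1711 with the same limma-trend fits and 2266 and 1855 with no fold limit. The 10% rule left 11 of the 19 TCs. With a library or a replicate number left out, the members called lower in wt numbered 0 to 1 (WRKY26 without replicate 1 of every group) and the member TCs called higher in hen2-4 against wt at 10 min 0 to 1. Without replicate 1 of every group WRKY29 was not called in wt (1.57, adjusted p = 0.081) or hen2-4 (1.66, adjusted p = 0.088), nor in hen2-4 without replicate 2 of every group (1.61, adjusted p = 0.078). On the W-box core, 10 members held one in 500 bases (67.5% of all windows) and 8 in the 250 bases before the annotated 5′ end (45.3%), windows added after the data were seen, as were the alternatives for the lists and for the TC opposite WRKY22. Same-numbered libraries (r -0.392 to 0.451, over 0.1 in 11 of 30 pairs) did not clearly deviate together more than other-numbered ones (over 0.1 in 20 of 60). No pairing by number was thus seen, but with 3 libraries per group this check cannot exclude one. With a replicate block the members called higher were still 7 in wt and 6 in hen2-4, and the TCs 15 and 13, and the TC opposite WRKY22 was not called (1.25, adjusted p = 0.056). Values of WRKY54 rest on 28 to 98 tags per library, which limits what a fold change can show.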
